A study of Mus musculus with 30 samples.

Results

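Tumours of 5 mouse lines derived from BALB/c mice were compared with tumours of 5 lines derived from C57BL/6 mice, with the line as the unit. For each gene, log2(TPM + 1) was averaged over the 3 libraries of a line, and genes were singled out when the range of the 5 BALB/c-origin line means did not overlap the range of the 5 C57BL/6-origin line means. Of 55291 genes in the table, 17944 reached 1 TPM in at least 3 libraries and were tested, and the ranges did not overlap for 729 of them. TPM (transcript abundance, divided by transcript length and scaled to the same total in each library) is the unit of all levels. The BALB/c-origin lines were EMT6 (mammary carcinoma), CT26 (colon carcinoma), CT26NYESO1 (named as CT26 with the NY-ESO-1 antigen), CMS5a (fibrosarcoma) and Renca (renal carcinoma). The C57BL/6-origin lines were MC38 (colon carcinoma), MC38OVA (named as MC38 with ovalbumin), LL2 (lung carcinoma), B16F1 and B16F10 (melanomas). The strain of origin of each line is general knowledge and is not in the labels. All 30 libraries are labelled as CD45+ immune cells that infiltrated subcutaneous tumours, and the RNA is described as prepared from dissociated tumours of 10 mm in length. BALB/cJ and C57BL/6J hosts, and OK-432 (a streptococcal preparation) given into tumours or withheld for 24 hours, are named for the study but not tied to libraries. The strain of the line and that of the host therefore cannot be told apart, and treatment could not be balanced. Nothing says that the 3 libraries of a line came from separate mice.

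Inbred mouse strains carry different haplotypes at the H-2 locus, the major histocompatibility complex (MHC) of chromosome 17. Class I molecules of the H2-K, H2-D and H2-Q groups present peptides to CD8 T cells or engage natural killer (NK) cells, and class II molecules, heterodimers of an alpha and a beta chain, present peptides to CD4 T cells. C57BL/6 mice, of the H-2b haplotype, lack the alpha chain of the class II I-E molecule, and BALB/c mice, of the H-2d haplotype, have it. Strains also differ in interferon-inducible genes, in NK receptor genes and in processed pseudogenes, which are intronless copies of messenger RNAs inserted elsewhere in the genome. The reference genome of the mouse was assembled from C57BL/6J.

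In the test of each gene (limma on the 10 line means), 247 genes were called at an adjusted p under 0.05 and a difference of at least 1 on the log2 scale, which is 1.38% of the genes tested. Of these, 211 (1.18%) were higher in the BALB/c-origin lines and 36 (0.201%) were higher in the C57BL/6-origin lines. The 729 genes whose ranges did not overlap are 4.06% of those tested, with 555 (3.09%) higher in the BALB/c-origin and 174 (0.97%) higher in the C57BL/6-origin lines. They include 243 of the 247 called genes. The stricter comparison of the 15 and 15 single libraries left 219 genes (1.22%) without overlap, 176 (0.981%) and 43 (0.24%) in the same order. Over all genes tested the median difference, BALB/c-origin minus C57BL/6-origin, was 0.12, and it was 0.0023 after median-ratio scaling of the libraries. With that scaling the share of non-overlapping genes higher in the BALB/c-origin lines moved from 76.1% to 58.2%, and with mitochondrial and haemoglobin genes taken out of the total it was 62.2%. Without both B16 lines it was 49.97%.

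**Figure D1:**
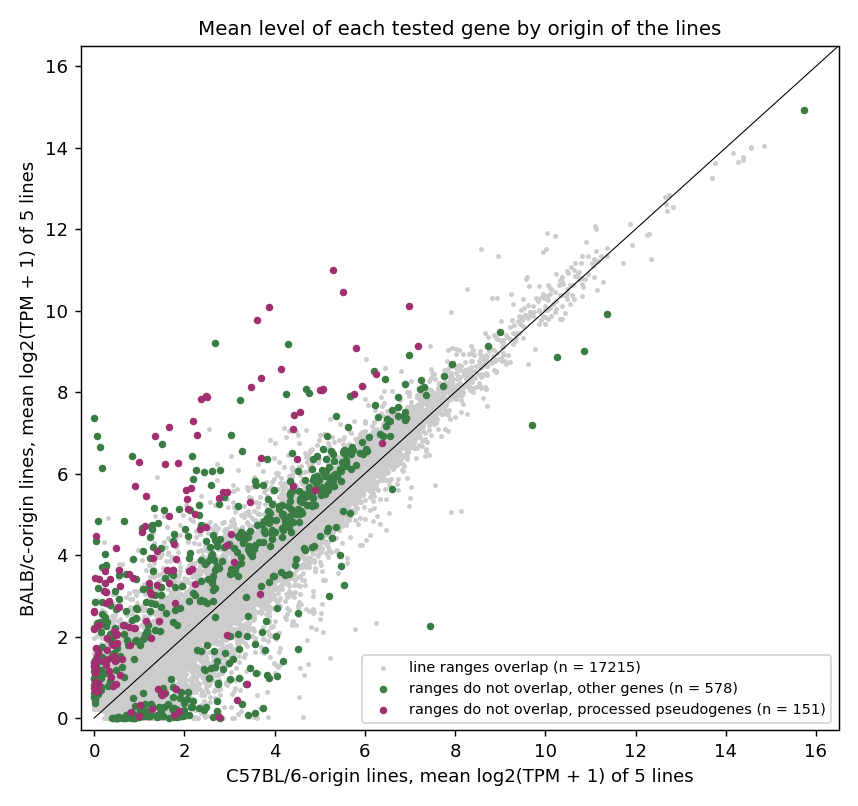
Mean log2(TPM + 1) of the 5 C57BL/6-origin lines (horizontal) against that of the 5 BALB/c-origin lines (vertical) for each of the 17944 genes tested; the diagonal marks equal means. Grey points are the 17215 genes whose line ranges overlap, magenta points the 151 processed pseudogenes and green points the 578 other genes whose ranges do not. Of the magenta points 136 lie above the diagonal, by 0.36 to 6.21.

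Processed pseudogenes held the largest share of the called genes. They were 1031 of the genes tested (5.75%), but 109 of the 211 called higher in the BALB/c-origin lines (51.7%) and 136 of the 555 non-overlapping genes in that direction (24.5%). In the other direction they were 5 of 36 called genes. Of those 136 pseudogenes, 124 aligned to a parent gene over at least 200 bases. The median identity between these pseudogenes and the parent's coding sequence was 98.6%. Of the pseudogenes, 52 had a ribosomal protein gene as parent. The share with such a parent among all 1031 tested was not counted, so no excess can be read from the 52. At such identity the division of reads between a parent and its copies is uncertain, so the level of any single member is uncertain too. The pairs below show how little sequence separates a parent, whose protein is part of the ribosome, from a copy. Each line is a stretch of 90 bases, 5′ to 3′, with the bases that differ in capitals. Sequences are from GENCODE M21 (mm10).

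Rpl29 coding bases 211 to 300: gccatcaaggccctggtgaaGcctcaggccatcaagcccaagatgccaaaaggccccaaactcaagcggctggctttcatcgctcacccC
Gm14036, chr2:134804156-134804245, plus strand: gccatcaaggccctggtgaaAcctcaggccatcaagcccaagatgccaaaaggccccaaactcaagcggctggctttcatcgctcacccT
Rpl26 coding bases 88 to 177: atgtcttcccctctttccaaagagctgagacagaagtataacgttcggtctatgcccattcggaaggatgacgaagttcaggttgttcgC
Gm15772, chr5:3236518-3236607, plus strand: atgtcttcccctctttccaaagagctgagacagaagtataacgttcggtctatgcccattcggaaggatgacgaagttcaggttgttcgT
Rps2 coding bases 1 to 90: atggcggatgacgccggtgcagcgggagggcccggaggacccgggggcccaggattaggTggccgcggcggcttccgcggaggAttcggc
Rps2-ps13, chrX:52898588-52898677, plus strand: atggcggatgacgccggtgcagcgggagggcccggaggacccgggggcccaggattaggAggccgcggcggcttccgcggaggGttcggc

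Counted from the first coding base of the parent, the differences in these stretches are G231A and C300T for Gm14036, C177T for Gm15772, and T60A and A84G for Rps2-ps13. Over the aligned bases, with gaps left out, Gm14036 differs from Rpl29 at 3 of 477, Gm15772 from Rpl26 at 2 of 435 and Rps2-ps13 from Rps2 at 7 of 882. With gaps counted, the BLAST alignment of Rps2-ps13 to Rps2 had 97.76% identity over 895 positions.

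In these 3 pairs, chosen from parents that were called lower, the copies were high and the parents low in the same libraries. Gm15772 was at 564, 1664 and 2172 TPM (lowest, median and highest of the 15 BALB/c-origin libraries), against 28.1, 38.3 and 419 TPM in the 15 C57BL/6-origin libraries. Its parent Rpl26 was at 210, 646 and 833 TPM against 1220, 1836 and 3433 TPM. Neither gene overlapped between the 2 sets of libraries, and the differences were 4.94 ± 0.35 for the copy and -1.84 ± 0.31 for the parent (log2(TPM + 1), ± SE; adjusted p of 1.43e-05 and 0.0114). Gm14036 was at 49.8, 73.9 and 163 TPM against 0.379, 0.832 and 6.73 TPM, while Rpl29 was at 75.1, 174 and 201 TPM against 459, 808 and 1234 TPM. Here, too, no library of one set reached the range of the other, with differences of 5.28 ± 0.23 and -2.51 ± 0.23 (adjusted p of 3.72e-07 and 0.00012). Rps2-ps13 was at 175, 418 and 542 TPM against 9.94, 17.1 and 28.0 TPM, and Rps2 at 438, 1036 and 1376 TPM against 1629, 2834 and 3804 TPM. The parent was again lower in every BALB/c-origin library than in any C57BL/6-origin library, by -1.46 ± 0.25 (adjusted p = 0.0144).

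Sums were made for 71 tested parents: those with a processed pseudogene that was higher in the BALB/c-origin lines without overlap, and Eno1 and Tpm3. The copies summed for these last are Eno1b and Tpm3-rs7, which are annotated as protein-coding. Of the 71, 4 were called lower in the BALB/c-origin lines. These 4, which were chosen for that, had smaller differences once the TPM of their pseudogenes were added. The sum for Rpl29 with 11 pseudogenes averaged 908 TPM in the BALB/c-origin and 905 TPM in the C57BL/6-origin lines, a difference of 0.0055. For Rpl26 with 4 pseudogenes the sum was 2086 against 2018 TPM (0.014), for Rps2 with 26 pseudogenes 3961 against 2899 TPM (0.43), and for Rpl35a with 10 pseudogenes 1769 against 1496 TPM (0.28). The line ranges of all 4 sums overlapped. The share of the sum that lay on pseudogenes was 83.3% against 5.22% for Rpl29, 73.1% against 3.23% for Rpl26, 74.5% against 6.16% for Rps2 and 72.4% against 10.9% for Rpl35a. Single copies went both ways. Of the Rpl29 copies 5 were higher and 2 lower in the BALB/c-origin lines without overlap, and of the Rps2 copies 13 and 3. Gm17669, a copy of Rpl29 (-2.73), and Gm5921, a copy of Rps2 (-2.55), were called lower, as their parents were. Over all 71 parents the sums were not closer between origins than the parents, with a median absolute difference of 0.36 for the parents and 0.42 for the sums. The median signed differences were 1.75 for the summed copies, 0.055 for the parents and 0.36 for the sums. As the families were picked for a higher copy, the values for copies and sums are raised by that choice. Over all 1031 tested processed pseudogenes the median difference was 0.17, beside 0.12 over all genes. The line ranges of 8 sums did not overlap. Of these 8, Eno1b is itself a copy, Gm10184, Gm10282 and Gm7879 are predicted genes, and the sum of Acp1 was lower in the BALB/c-origin lines (-0.55). Rpl21 with 17 pseudogenes is another of the 8, with a sum of 1808 against 891 TPM (1.09) and a parent difference of 0.13. The sum of Rpl30 with 7 pseudogenes differed by 1.11 with overlapping ranges. The sources used here do not say how reads that align to several copies were assigned. The part of the C57BL/6J reference genome, and of insertions that differ between strains, in these values was not tested.

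**Figure D2:**
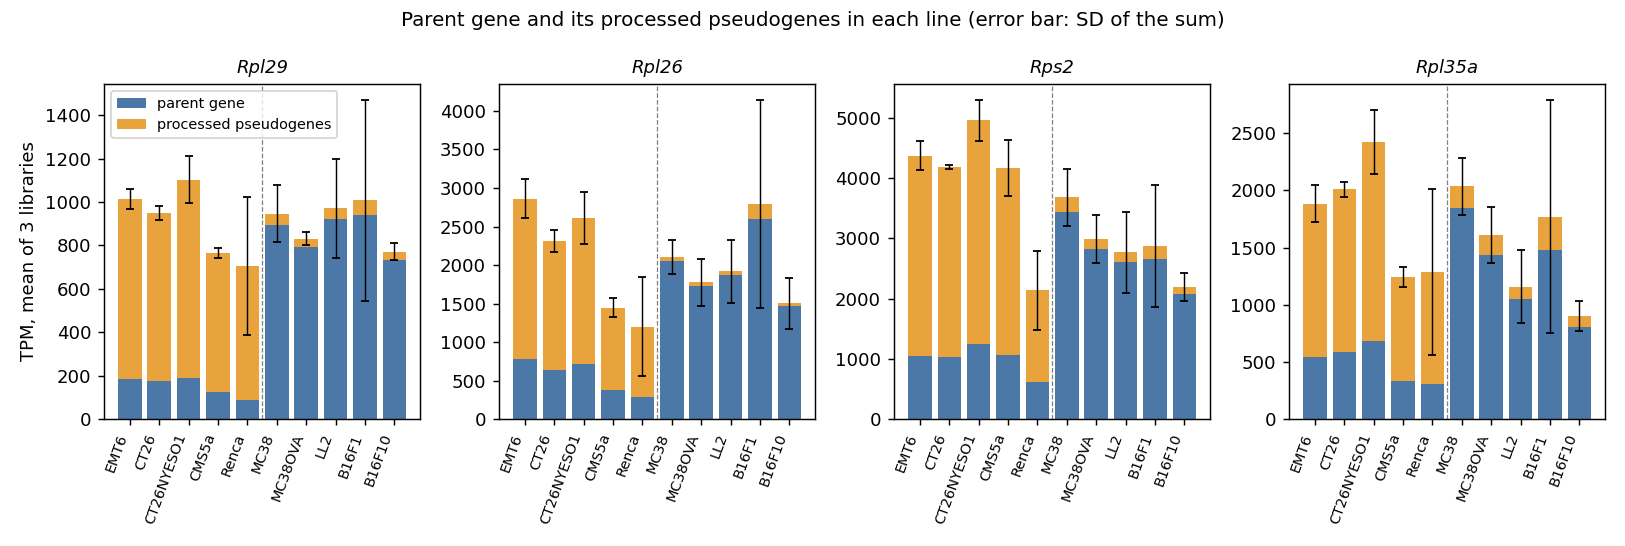
Mean TPM of 3 libraries in each line (vertical, from 0) for 4 ribosomal protein genes (blue) with their processed pseudogenes stacked on top (orange); the error bar is the SD of the sum and the dashed line separates BALB/c-origin (left) from C57BL/6-origin lines (right). For Rpl29 the pseudogenes hold 83.3% of the sum in the BALB/c-origin and 5.22% in the C57BL/6-origin lines, while the sums overlap.

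A copy of at least 200 bases at 95% identity was found for 15.4% of the 15171 tested genes whose sequence could be searched, for 63.7% of 182 genes called higher in the BALB/c-origin lines and for 32.3% of 31 called higher in the C57BL/6-origin lines. Most of these were processed pseudogenes in the BALB/c-origin direction: without them the shares were 10.7% of 14140 genes, 23.3% of 73 (17 genes) and 26.9% of 26 (7 genes). Of the called genes that were searched, 87 had no such copy, 66 higher in the BALB/c-origin and 21 higher in the C57BL/6-origin lines. Sequences shorter than 200 bases could not have one by this rule, such as the called processed pseudogenes Tma7-ps (195 bases) and Gm11702 (69 bases). When genes without a close copy were fitted and adjusted alone, 23 and 7 were called. A parent outside the ribosome also had such a copy. Tpm3, a tropomyosin of the cytoskeleton, was not called (-0.79), while Tpm3-rs7 was at 117, 249 and 309 TPM against 3.17, 9.99 and 12.9 TPM and was called (4.56 ± 0.30, adjusted p = 6.05e-06).

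In the MHC class II list, 2 of 11 tested members were called, both higher in the BALB/c-origin lines, beside 1.18% of all genes. H2-Ea, which encodes the alpha chain of I-E, was listed at 0 TPM in all 15 C57BL/6-origin libraries and lay at 21.2, 172 and 472 TPM in the BALB/c-origin libraries (adjusted p = 1.27e-06). RefSeq's table of GRCm38.p6 places it at chr17:34341952-34344645 and lists it as a transcribed pseudogene. H2-DMb2, a chain of the H2-DM molecule that loads peptides onto class II, was at 8.30, 19.2 and 77.2 TPM against 0.660, 4.66 and 10.8 TPM, with overlap between libraries but not between lines (2.30 ± 0.47, adjusted p = 0.0370). It has a near-identical neighbour, H2-DMb1, whose difference was -0.68 (adjusted p = 0.57). The call of H2-DMb2 was lost without EMT6, CT26NYESO1, CMS5a, MC38, LL2, B16F1 or B16F10 (adjusted p of 0.0539 to 0.0908), without CT26 replicate 3 (0.0604) or MC38OVA replicate 1 (0.0502), and without replicate 3 of every line (0.0789). The other chains did not pass the test. H2-Eb1, the beta chain that pairs with H2-Ea, was at 14.5, 121 and 399 TPM against 20.1, 93.4 and 364 TPM, and H2-Aa, H2-Ab1 and Cd74, the class II chaperone, had differences of 0.60, 0.71 and 0.63. Libraries of both origins overlapped for all 4.

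The nonclassical class I list had 5 of 19 tested members called and 6 without overlap, all higher in the BALB/c-origin lines. The shares over all genes in that direction were 1.18% and 3.09%. The list's median difference was 1.65, beside 0.12 over all genes. H2-Q2 (chr17:35342242-35346762) was at 34.6, 70.5 and 100.2 TPM in the BALB/c-origin libraries and at 0, 0.0607 and 0.412 TPM in the C57BL/6-origin libraries (5.96 ± 0.24, adjusted p = 2.90e-07). The gap between the lowest BALB/c-origin and the highest C57BL/6-origin library was wide. H2-Q10 (chr17:35470089-35474563), which encodes a secreted class I molecule, was at 11.1, 25.6 and 44.8 TPM against 0.0575, 1.53 and 3.81 TPM (3.62 ± 0.39, adjusted p = 0.000338). H2-Q1 was at 40.4, 64.9 and 114 TPM against 0, 5.18 and 17.8 TPM (3.61 ± 0.67, adjusted p = 0.0224), and H2-K2, an unprocessed pseudogene, at 33.2, 68.5 and 147 TPM against 0.931, 5.70 and 21.4 TPM (3.32 ± 0.62, adjusted p = 0.0230). For these 4 genes no library of one origin lay within the range of the other. H2-Bl was called as well (2.83), and H2-Q5 had separate line ranges but missed the test (3.28 ± 0.74, adjusted p = 0.0618). The calls of H2-Q1 and H2-K2 were each lost without any 1 of the 5 BALB/c-origin lines, that of H2-Q1 also without B16F10 and that of H2-K2 without B16F1, with adjusted p up to 0.0693 and 0.0689.

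Class I genes resemble each other closely and differ between H-2 haplotypes, so the gene to which these reads belong is uncertain. Gm10499 and Gm8909, 2 further class I genes outside the naming rule that were chosen after their values were seen, were at 64.5, 122 and 246 TPM and 14.3, 27.7 and 51.0 TPM in the BALB/c-origin libraries and at most at 0.167 and 0.233 TPM in the C57BL/6-origin libraries. The classical genes H2-K1 and H2-D1 were not called, with differences of 1.21 and 1.24, and none of the 15 tested members of the classical class I and peptide loading list was called or free of overlap. That list had 0 members at an unadjusted p under 0.05, beside 11.6% of all genes, and 0 called is near the 1.38% over all genes. Summed over 35 class I genes, the level was 3295, 5889 and 8741 TPM against 163, 1946 and 7853 TPM, so the sets of libraries overlapped. The 11 class I genes with separate line ranges added 324, 637 and 986 TPM against 3.85, 22.6 and 107 TPM. As these 11 were picked for separate ranges, the gap in their sum follows from that choice. Windows of 2 Mb across the genome placed the most non-overlapping genes in the MHC, with 9 of 121 tested genes in chr17:34000001-36000000 and 9 of 35 in chr17:36000001-38000000, all 18 higher in the BALB/c-origin lines. Chromosome 17 as a whole had 6.87% of its tested genes without overlap, beside 4.06% over all genes.

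**Figure D3:**
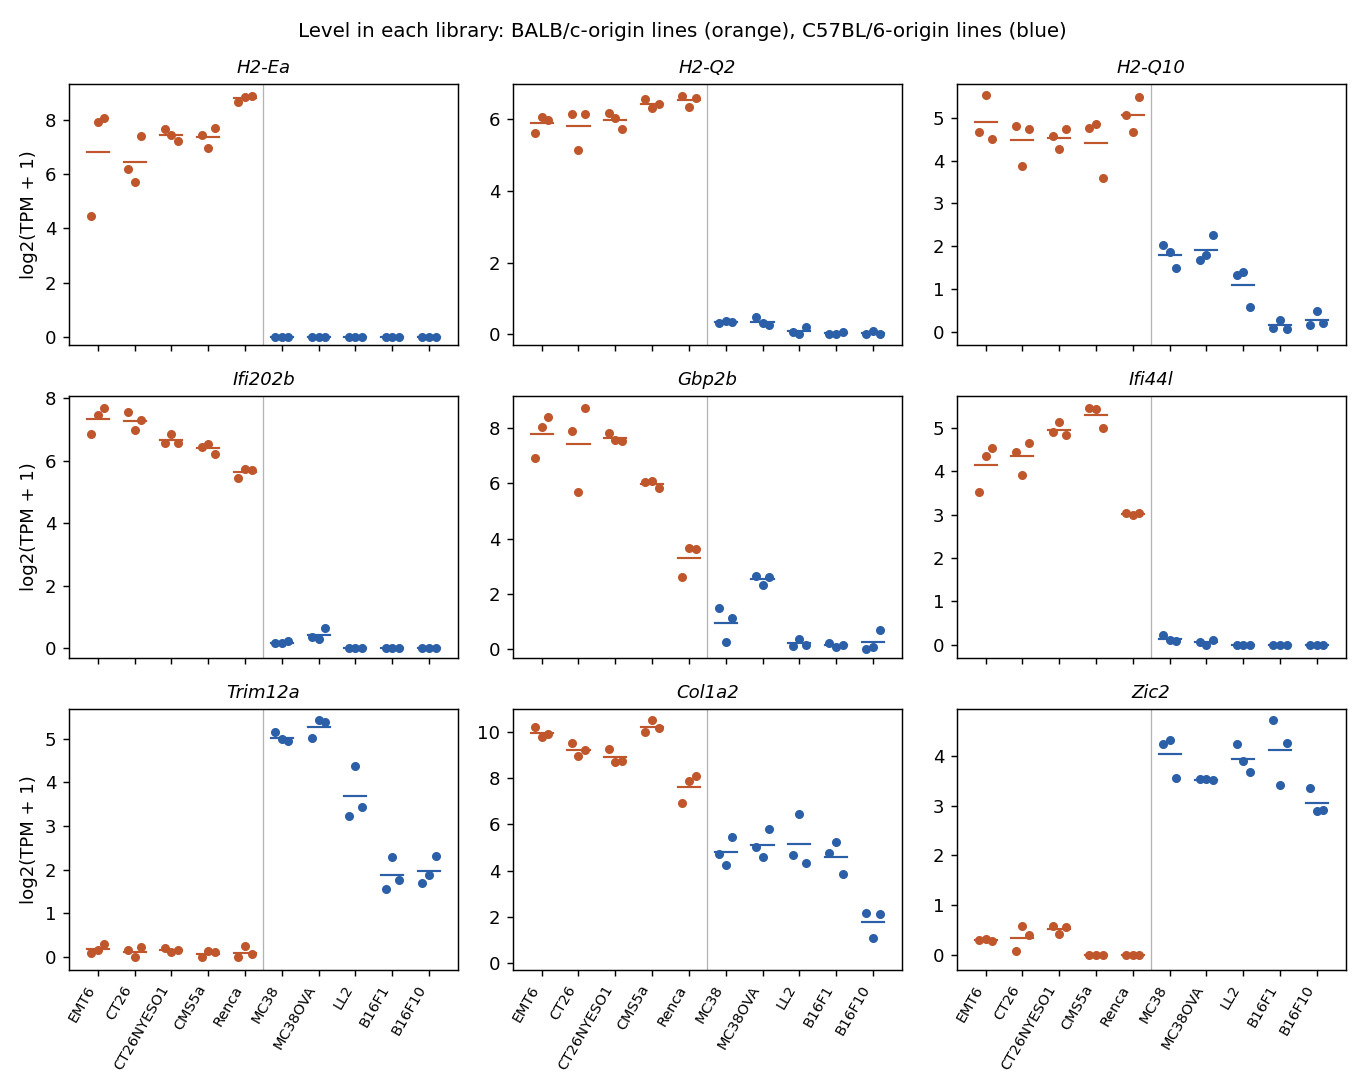
Level of 9 genes in each library (points) and the mean of each line (bars), as log2(TPM + 1) on the vertical axis with the 10 lines along the horizontal axis; BALB/c-origin lines are orange and C57BL/6-origin lines blue. H2-Ea, H2-Q2, Ifi202b and Ifi44l lie at or near 0 in every C57BL/6-origin library, Trim12a and Zic2 at or near 0 in every BALB/c-origin library, and Gbp2b and Col1a2 vary widely within an origin.

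Among interferon-inducible genes the differences fell on single members of families. Ifi202b, an inhibitor of DNA sensing by its relative Aim2, was at 42.3, 94.3 and 205 TPM in the BALB/c-origin libraries and at most at 0.576 TPM in the C57BL/6-origin libraries, where 9 of 15 were at 0 (6.54 ± 0.33, adjusted p = 1.27e-06). It was the only 1 of 13 tested members of the Ifi200 family to be called, beside 1.38% of all genes. The family's median difference was -0.61. Gbp2b, a guanylate-binding protein of the defence against intracellular pathogens, was at 5.17, 121 and 417 TPM against 0, 0.213 and 5.29 TPM (5.59 ± 0.84, adjusted p = 0.00503). The lowest BALB/c-origin library, of Renca, lay just below the highest C57BL/6-origin library, of MC38OVA, and without both B16 lines the adjusted p was 0.0566. Gbp2b was the 1 called gene of 19 interferon-inducible GTPases, beside 1.38% of all genes. Gbp2, Gbp3 and Gbp5 had differences of 0.68, 0.91 and 0.15. Ifi44l, an interferon-induced antiviral gene, was at 6.89, 22 and 42.9 TPM against a highest value of 0.163 TPM (4.31 ± 0.39, adjusted p = 0.000107), and its neighbour Ifi44 was not called (1.75, adjusted p = 0.59).

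The Trim genes next to one another on chromosome 7, relatives of the retroviral restriction factor TRIM5, went in both directions. Trim12a (chr7:104299894-104315466) was at 0, 0.0998 and 0.231 TPM in the BALB/c-origin libraries and at 1.93, 9.88 and 41.7 TPM in the C57BL/6-origin libraries (-3.43 ± 0.65, adjusted p = 0.0249). The ranges did not overlap, and within the C57BL/6-origin lines B16F1 had the lowest mean, 2.74 TPM, and MC38OVA the highest, 38.0 TPM. Trim34b was higher in the BALB/c-origin lines, at 1.08, 5.29 and 10.4 TPM against 0, 0.323 and 1.29 TPM (2.19 ± 0.31, adjusted p = 0.00363). Trim5 itself was low everywhere and had separate line ranges without passing the test (-1.29 ± 0.43, adjusted p = 0.24). These 3 genes have close copies at 95% identity, so reads may be shared within the cluster, and the call of Trim12a was lost without any 1 of the 5 BALB/c-origin lines, MC38 or LL2, with adjusted p up to 0.0732 without CT26. Of the 48 tested antiviral and retroviral restriction genes, 2 were called higher in the BALB/c-origin and 1 higher in the C57BL/6-origin lines. The shares over all genes were 1.18% and 0.201%, and the list's median difference was -0.0085.

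Promoters of 3 of these genes are printed as examples of genes whose median over libraries was near 0 on one side. These were Trim12a in the BALB/c-origin and Ifi202b and Gbp2b in the C57BL/6-origin lines. Each runs 5′ to 3′ from 250 bases before to 50 bases after the start of the gene (RefSeq, GRCm38.p6), with matches on either strand to GAAA, any 2 bases and GAAA again, the core of the interferon-stimulated response element, in capitals.

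Gbp2b, chr3:142594597-142594896, plus strand: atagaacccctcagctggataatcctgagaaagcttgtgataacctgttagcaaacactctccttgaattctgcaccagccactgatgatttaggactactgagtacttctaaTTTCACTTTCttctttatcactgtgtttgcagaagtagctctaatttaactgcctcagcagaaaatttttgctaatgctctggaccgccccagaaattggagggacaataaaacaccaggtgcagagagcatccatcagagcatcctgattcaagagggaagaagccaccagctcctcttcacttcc
Trim12a, chr7:104315446-104315745, minus strand: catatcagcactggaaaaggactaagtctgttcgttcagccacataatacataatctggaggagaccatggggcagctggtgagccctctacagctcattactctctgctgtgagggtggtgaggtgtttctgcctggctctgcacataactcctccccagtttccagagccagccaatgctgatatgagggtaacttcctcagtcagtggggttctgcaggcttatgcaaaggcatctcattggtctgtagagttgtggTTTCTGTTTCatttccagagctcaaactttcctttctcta
Ifi202b, chr1:173982795-173983094, minus strand: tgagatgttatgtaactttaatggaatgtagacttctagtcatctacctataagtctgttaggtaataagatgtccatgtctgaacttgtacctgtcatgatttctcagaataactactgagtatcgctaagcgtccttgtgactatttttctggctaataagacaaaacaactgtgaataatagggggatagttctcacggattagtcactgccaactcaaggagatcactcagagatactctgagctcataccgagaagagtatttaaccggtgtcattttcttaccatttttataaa

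The motif occurred once in the window of Gbp2b, before the start, and once in that of Trim12a, after the start, and these letters are not in the window of Ifi202b. Of 9 member promoters searched, these 2 held it, and the windows of Ifi44l, H2-Q2, H2-Q10, Col1a2, Ulbp1 and Klra4 did not. Of 32851 promoters of this length, 3.44% hold the motif.

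The ligands of NKG2D, an activating receptor of NK and CD8 T cells, had 2 of 4 tested members called higher in the BALB/c-origin lines. Over all genes that share was 1.18%. Ulbp1 was at 8.28, 45.2 and 70.7 TPM against 1.15, 9.33 and 13.1 TPM (2.49 ± 0.50, adjusted p = 0.0332), with separate lines and overlapping libraries. H60b was at 0.290, 8.82 and 36.5 TPM against 0.00995, 0.171 and 2.28 TPM (2.66 ± 0.53, adjusted p = 0.0323), and its libraries overlapped too. The call of Ulbp1 was lost without EMT6, CT26, CT26NYESO1, CMS5a or B16F1 (adjusted p up to 0.111), and that of H60b without any 1 line but Renca or B16F10 (up to 0.0926). Without Renca replicate 3 the adjusted p of H60b was 0.0649, and without replicate 3 of every line those of Ulbp1 and H60b were 0.0597 and 0.0958. Raet1d and Raet1e, ligands of the same receptor, had differences of -0.13 and -0.0052, and the receptor gene Klrk1 had one of -0.0032. None of the 29 tested genes of the NK receptor complex was called, beside 1.38% of all genes. Of the 29, 5 had an unadjusted p under 0.05, beside 11.6% of all genes. Klra4 and Klra8, receptors of the Ly49 family, were at most at 0.207 and 0.0615 TPM in the BALB/c-origin libraries and reached 40.1 and 15.3 TPM in the C57BL/6-origin libraries (-2.61 and -1.65, adjusted p of 0.31 and 0.23). Their line ranges were separate, but some C57BL/6-origin libraries were at 0.

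Some genes of the extracellular matrix, which are not markers of CD45+ cells, were called higher in the BALB/c-origin lines. Col1a2, the alpha-2 chain of type I collagen, was at 119, 614 and 1471 TPM in the BALB/c-origin and at 1.11, 24.3 and 87.2 TPM in the C57BL/6-origin libraries (4.89 ± 0.68, adjusted p = 0.00292), and no library overlapped. Col1a1, the alpha-1 chain of the same collagen, was at 29.2, 145 and 339 TPM against 1.01, 35.8 and 97.5 TPM and was not called (2.44 ± 0.78, adjusted p = 0.22). Of 15 tested fibroblast and matrix genes Col1a2 alone was called, beside 1.38% of all genes, and the list's median difference was 0.77. Fbln2, a fibulin of the matrix (3.92 ± 0.74, adjusted p = 0.0230), and Itgbl1, an integrin-like secreted protein (3.78 ± 0.67, adjusted p = 0.0152), were called with no overlap between libraries. The call of Fbln2 was lost without EMT6, CT26, CMS5a, Renca or B16F1 (adjusted p up to 0.0707) and that of Itgbl1 without CT26NYESO1 (0.0501). Angptl4, an inhibitor of lipoprotein lipase, was at 21.6, 52.9 and 212 TPM against 0.473, 4.08 and 12.2 TPM (3.67 ± 0.59, adjusted p = 0.00821). Clip4, a microtubule-binding protein, was at 4.15, 14.9 and 25.3 TPM against 0, 0.212 and 0.499 TPM (3.50 ± 0.40, adjusted p = 0.000601). Glo1, the glyoxalase that detoxifies methylglyoxal and a known site of copy number differences between strains, was at 34.3, 45.5 and 123 TPM against 13.1, 17.5 and 34.6 TPM (1.46 ± 0.24, adjusted p = 0.0101). In bulk RNA, more cells of a type and more RNA per cell cannot be told apart.

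Named genes called higher in the C57BL/6-origin lines were mostly outside the immune lists. Zic2, a zinc finger transcription factor of neural development, was at 6.44, 10.7 and 25.1 TPM in the C57BL/6-origin libraries and at most at 0.507 TPM in the BALB/c-origin libraries (-3.50 ± 0.28, adjusted p = 3.72e-05). Chd9, a chromatin remodeller, was at 18.3, 49.0 and 91.5 TPM against 3.67, 8.49 and 15.3 TPM in the BALB/c-origin libraries (-2.26 ± 0.31, adjusted p = 0.00274). Dlc1, a GTPase-activating protein, was at 6.34, 11 and 27.0 TPM against 0.202, 0.980 and 3.85 TPM (-2.48 ± 0.36, adjusted p = 0.00433), and Dclk2, a doublecortin-like kinase, at 2.61, 10.4 and 37.8 TPM against 0.0465, 0.297 and 0.556 TPM (-2.92 ± 0.44, adjusted p = 0.00546). In these 4 genes no library of one origin lay in the range of the other. Deptor, an inhibitor of mTOR (-2.81), Dennd2a (-2.80), Slc38a1, a glutamine transporter (-2.22), L3hypdh (-2.23), Stk39, a kinase that regulates ion cotransporters (-2.03), Eps8l1 (-1.88), Vegfc, a growth factor for lymphatic vessels (-1.87), and Rpph1, the RNA of ribonuclease P (-2.78), were called with adjusted p between 0.0120 and 0.0322. Except for Eps8l1, each of these calls was lost without at least 1 line, at adjusted p of 0.05001 to 0.107. That was CT26 for Deptor, CT26 or CT26NYESO1 for Stk39, CT26NYESO1, CMS5a or B16F1 for Dennd2a, and CT26, CT26NYESO1, CMS5a, MC38 or MC38OVA for Vegfc. For Slc38a1 it was EMT6, CT26, CT26NYESO1, LL2 or either B16 line, for Rpph1 EMT6, CT26NYESO1, Renca, MC38, LL2 or B16F10, and for L3hypdh every line but EMT6 and Renca.

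No gene of the immune cell type lists was called. Ptprc, which encodes the CD45 of the label, was detected in all 30 libraries at 9.28, 38.3 and 69.2 TPM against 2.7, 63.7 and 215 TPM (0.18, adjusted p = 0.95). In the 7 lists for leukocytes, T cells, B cells, cytotoxic effectors, macrophages, neutrophils and dendritic cells, 0 of 83 tested genes were called or had separate line ranges, beside 1.38% and 4.06% of all genes, and 0 had an unadjusted p under 0.05, beside 11.6% of all genes. A count of 0 called among 83 is near that background. The Th1 and M1 list and the Th2 and M2 list, markers of the polarised immunity for which C57BL/6 and BALB/c mice are textbook examples, had 0 of 42 tested genes called and 3 at an unadjusted p under 0.05, both near the shares over all genes. Their median differences were -0.22 and 0.15. Chil3, the M2 marker Ym1, was the 1 gene of both lists with separate line ranges, at 0.307, 1.09 and 3.72 TPM in the BALB/c-origin and 0.678, 21.2 and 162 TPM in the C57BL/6-origin libraries (-3.02 ± 0.78, adjusted p = 0.11). Mast cell protease and eosinophil ribonuclease genes had a median difference of 1.94 over 8 tested members with 0 called and 5 at an unadjusted p under 0.05. Their leading gene Tpsab1, a tryptase, was at 0, 36.2 and 178 TPM against 0, 0.102 and 0.716 TPM (4.10 ± 0.93, adjusted p = 0.0649), and was low in Renca, with a mean of 0.142 TPM. Pigment cell genes had a median difference of -3.08 over 10 genes with 0 called, and Dct, a melanin synthesis enzyme, was at most at 0.235 TPM in the BALB/c-origin libraries and reached 4672 TPM in B16 tumours. Nnt and Apobec3, which differ between strains in sequence, were not called (0.33 and 0.63).

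**Figure D4:**
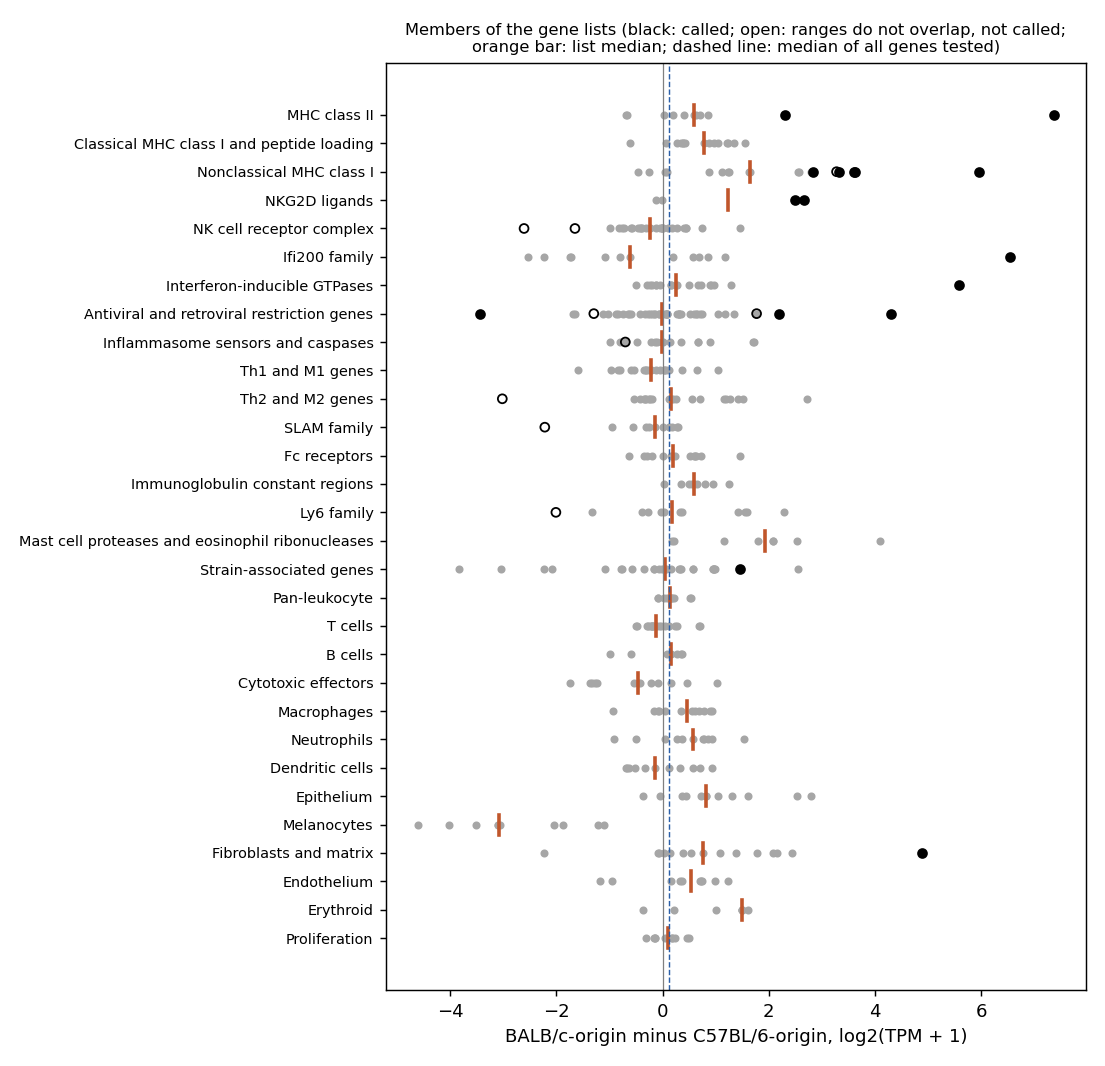
Difference between origins (horizontal, BALB/c-origin minus C57BL/6-origin in log2(TPM + 1)) for the tested members of 30 gene lists (rows). Black points are called genes, open circles genes with separate line ranges that were not called, grey points the rest, the orange bar the list's median and the dashed line the median of all genes, 0.12. Most lists hold no called gene, and the others hold 1 to 5.

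The mitochondrial share of TPM was lower in the BALB/c-origin lines, 16.9% ± 4.88 (SD, n = 5 lines) against 23.8% ± 3.66, with an exact two-sided permutation p of 0.0476 (0.0952 adjusted over the 2 shares tested). Averaged over families of related lines the exact p was 0.171, and without each line in turn it lay between 0.0238 and 0.0952. The haemoglobin share was 1.34% ± 1.02 against 1.28% ± 1.77 (n = 5 lines, exact permutation p = 1). The score of 10 pan-leukocyte genes, a mean of log2(TPM + 1), ranged over the lines from 5.32 to 6.31 in the BALB/c-origin set and from 4.08 to 7.12 in the C57BL/6-origin set. The part of these measures in the results above was not tested beyond the scalings and the covariate given in the closing section.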

How the data were processed

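The authors deposited one table of TPM per gene symbol and library. The submitters' processing notes name Trim Galore (0.6.5), STAR (2.7.3a) and StringTie (2.1.2), with mm10 as the genome build. The annotation and the treatment of multi-mapped reads are not given in the sources used here. Read counts cannot be had from TPM, so the depth of a library and the counting error of a value are unknown.

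Values were taken as log2(TPM + 1), which understates the change of low genes, and averaged over the 3 libraries of a line. Genes that reached 1 TPM in 3 or more libraries entered limma 3.58.1 (R 4.3.3, trend in the variance) on 5 against 5 line means. Benjamini-Hochberg adjustment was made over all genes tested. The procedure was tried on simulated data with independent lines, which does not cover the related lines here. Related lines are not independent, which p-values do not reflect. No batch is given in the labels. Close copies were sought with BLAST 2.17.0 among GENCODE M21 coding and pseudogene sequences.

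Named genes are the 15 largest called and non-overlapping differences in each direction without predicted genes, pseudogenes and receptor segments, up to 5 non-overlapping members of each of 30 lists (526 entries, 448 tested), or 2 where none was, and a few genes known from comparisons of strains; a few pseudogenes and class I genes were added after their values were seen. Members and lists were chosen with earlier results of these data known. Nothing in the labels ties replicate numbers across lines: same-number libraries had correlations of -0.47 to 0.421, and 46 of 135 pairs exceeded 0.1, so no pairing was used. H60a is not analysed here.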

Additional observations from a re-analysis of the deposited data

Results flagged for a closer look

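Some lines stood apart from the other 4 of their origin by Dixon's test on line means. By chance about 1 in 20 groups is flagged. The number of groups examined is not given here, so these flags cannot be told from chance. For Col1a2, B16F10 was low among the C57BL/6-origin lines, at 1.79 (log2(TPM + 1)) beside 4.60 to 5.15 in the others. For Dclk2, EMT6 was at 0.081 beside 0.383 to 0.448 in the other BALB/c-origin lines, all far below the C57BL/6-origin lines. For H2-Q1, Renca was at 6.54 beside 5.89 to 5.96 in the other BALB/c-origin lines. For H60b, B16F10 was at 1.38 beside 0.077 to 0.447 in the other C57BL/6-origin lines. The haemoglobin share of CMS5a was 3.16% of TPM beside 0.778% to 0.965% in the other BALB/c-origin lines.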

How the results depend on the processing

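The calls in each direction (211 higher in the BALB/c-origin and 36 higher in the C57BL/6-origin lines) and the genes without overlap (555 and 174) changed with the choice of lines and copies, and no value named in the report changed sign as a call. Median-ratio scaling gave 302 non-overlapping genes higher in the C57BL/6-origin lines, a pseudocount of 0.1 gave 55 calls there, no filter 21 calls and 288 non-overlapping genes, and a filter at 5 TPM 112 non-overlapping genes. Averaging related lines into 7 families gave 89 and 12 calls and 955 and 399 non-overlapping genes, with fewer units on each side, and 98 of its 101 calls were among the 247. Without B16F1 and B16F10 there were 168 and 119 calls and 991 and 992 non-overlapping genes. A leukocyte score as covariate gave 86 calls higher in the C57BL/6-origin lines. Genes without a close copy at 95% identity, a choice made after seeing the data, gave 23 and 7 calls and 317 and 105 non-overlapping genes, and at 90% identity 17 and 5 calls and 283 and 98. Apart from these constructions the cause was not tested.

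Leaving out each line, library or replicate number gave 152 to 260 and 19 to 60 calls and 469 to 987 and 157 to 382 non-overlapping genes. Calls higher in the C57BL/6-origin lines were 20 without CT26, 19 without CT26NYESO1 and 60 without LL2. Non-overlapping genes higher in the BALB/c-origin lines were 987 without Renca and 911 without LL2, and those higher in the C57BL/6-origin lines were 279 without EMT6, 302 without CMS5a, 289 without Renca, 361 without LL2 and 382 without B16F10. The mitochondrial difference lay between -8.38 and -5.31 percentage points, with exact permutation p above 0.05 without EMT6, CT26, CT26NYESO1, MC38OVA, LL2, B16F1 or B16F10 and without replicate 2 or 3, and was -6.94 over families. The haemoglobin difference lay between -0.399 and 0.787 points, below 0 without CMS5a, MC38OVA, LL2 or B16F1.

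Fitting the 30 libraries with the line as a random block gave 580 and 244 calls. Adding the replicate block gave 558 and 225, and 10 of 30 libraries correlated best with their own number, so the numbers show no pairing. Of 36 named genes that were called, 19 kept the call without each line in turn, 32 without each single library, 31 also without each replicate number, 24 without both B16 lines and 13 over families; Gbp2b, Trim34b, Glo1, Angptl4, Dclk2 and Dlc1 had adjusted p by limma of 0.114, 0.0990, 0.107, 0.0573, 0.0508 and 0.0834 over families. TPM give no read depth, so what depth limits is unknown.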

Other observations

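Some genes outside the lists also had separate ranges, and were picked for description after their values were seen. AI506816 (chr5:23698296-23712667), a processed transcript, was at 123, 159 and 306 TPM in the C57BL/6-origin libraries and at 0.0836, 4.65 and 10.9 TPM in the BALB/c-origin libraries (-5.17 ± 0.40, adjusted p by limma = 2.83e-05). Tdg, the thymine DNA glycosylase of base excision repair, was at 4.84, 12.6 and 20.9 TPM in the BALB/c-origin and 27.6, 42.5 and 80.9 TPM in the C57BL/6-origin libraries (-1.74). Its pseudogene Tdg-ps2 was at 7.76, 26.3 and 43.0 TPM against 0.719, 1.63 and 2.17 TPM (3.36). The 2 were opposed, as were parent and summed copies in the 4 ribosomal protein families above that were chosen for a lower parent. Other ribosomal protein parents, such as Rpl21 (0.13), were not lower. Apoa2, an apolipoprotein of high-density lipoprotein, was at most at 0.481 TPM in the BALB/c-origin libraries and at 0.684, 3.20 and 5.55 TPM in the C57BL/6-origin libraries (-1.75, adjusted p by limma = 0.00637). After the MHC, the 2 Mb window with the most non-overlapping genes was chr13:66000001-68000000, with 6 of 33 tested genes, among them Rsl1 and Zfp493, members of a cluster of KRAB zinc finger repressors.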
